A study of Bos grunniens with 6 samples.

Results

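The peaks described here are the m6A peaks of cattle-yak testis that were listed on weakly expressed genes. They were chosen by the mean FPKM (an expression level in which fragment numbers are divided by transcript length and by the size of the library) of the gene to which each peak was assigned, which had to lie above 0 and below 1 over the 3 input libraries. This gave 1139 of the 16186 listed peaks, on 768 of 8775 genes that had a listed peak and an FPKM. The sections below refer to genes with a mean FPKM of 1 or more as expressed genes. These held 14573 peaks on 7925 genes, whereas genes at 0 held 90 peaks and genes without an FPKM held 384.

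Testis tissue came by castration from 3 healthy cattle-yaks (hybrids of cattle and yak, whose males are sterile) aged 5 years and named TES5, TES6 and TES7. Each animal gave 1 IP library, in which RNA fragments were pulled down with an antibody against m6A, and 1 input library of the same RNA without the pull-down, so that 6 libraries formed a single condition without a control group. The peak list was 1 list for the group, without a score or a value per animal, and the spread between animals is therefore known for the FPKM and not for any peak. The tissue is a mixture of cells, and fewer cells of a type cannot be told apart from less RNA per cell.

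N6-methyladenosine is placed on nascent mRNA by the METTL3 and METTL14 methyltransferase complex, is removed by the demethylases FTO and ALKBH5, and is read by YTH-domain proteins that alter mRNA decay, export and translation. It is typically found in long internal exons, in last exons around stop codons and in 3' UTRs. Testis transcribes an unusually broad range of genes, including many at a low level that are better known from nerve, muscle or embryonic tissue, and a peak call compares fragment numbers in IP and input, so that a transcript with few fragments gives a peak caller little material.

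The label of the tissue was compared with marker genes. The lists held 31 Sertoli, 16 Leydig and 13 peritubular myoid cell symbols, and only markers with a peak could be matched, a filter that itself goes with expression. Of these, 9 Sertoli cell markers had a median of the mean FPKM of 27.5, 2 Leydig cell markers 54.7 and 12 peritubular myoid cell markers 13.8, and none of these was weakly expressed. Among the germ cell lists the corresponding medians were 10 for spermatogonia (21 genes), 5.87 for meiotic spermatocytes (41 genes) and 1.84 for spermatids (25 genes). These medians describe the markers with a peak alone, and markers without one were not assessed. The sums of FPKM over 20953 genes were 302365 in TES5, 280940 in TES6 and 285927 in TES7.

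Weakly expressed genes carried a peak less often than genes at higher levels. A peak was listed for 768 of 5419 weakly expressed genes, or 14.2% (95% Wilson interval 13.3% to 15.1%), for 65.3% of 12144 expressed genes (64.4% to 66.1%) and for 2.42% of 3390 genes at 0, against 41.9% of all 20953 genes with an FPKM. Below 1 the share rose with the level. It was 2.89% (41 of 1421 genes) below 0.05 and 2.77% (18 of 650) from 0.05 to 0.1, and the intervals of both overlapped that of genes at 0. From 0.1 to 0.25 it was 7.76%, from 0.25 to 0.5 18.4%, from 0.5 to 0.75 32.4% and from 0.75 to 1 40.6% (208 of 512, interval 36.5% to 44.9%). Above the limit the share continued to 52.6% at an FPKM of 1 to 2 and 75.2% at 5 to 10, with no step at 1, and was 62.6% (61.3% to 63.9%) at 10 or more. The input libraries enter both the FPKM and the peak call, so that these shares are a description and not an independent comparison, and the number of fragments behind a peak is not given by FPKM values.

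**Figure D1:**
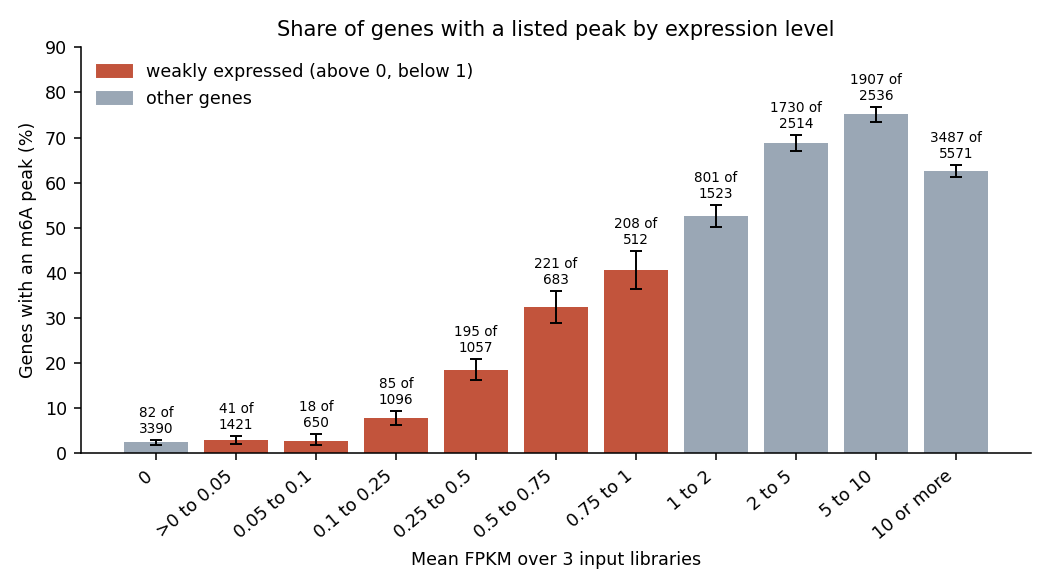
Share of genes with a listed m6A peak (vertical axis, %) by mean FPKM over the 3 input libraries (horizontal axis), with weakly expressed genes in red, other genes in grey, 95% Wilson intervals as error bars and the numbers of genes above the bars. The share climbs from 2.89% below an FPKM of 0.05 to 40.6% just below 1 and 75.2% at 5 to 10, without a break at 1, and is 62.6% at 10 or more.

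The genes nearest the limit did not form a separate class. *PRX*, which encodes periaxin of the myelin sheath, had FPKM values of 1.13, 1.05 and 0.813 in TES5, TES6 and TES7, *CCDC191* had 1.26, 0.879 and 0.858, and *TRIM6* had 0.701, 1.23 and 1.07, each with a mean of 0.999. Just above it lay the *TLR7* identifier ENSBGRG00000019181 with 1.10, 1.16 and 0.744, *KCND3* with 0.606, 1.37 and 1.03, and *ZNF26* with 1.04, 0.910 and 1.05. All 6 genes had values on either side of 1. At the low end, *HYAL1* (a hyaluronidase gene) had a mean FPKM of 1.57e-06 and 2 peaks, *SLC25A30* (a mitochondrial carrier gene) 4.77e-06 and 1 peak, and *OTOP3* (a proton channel gene) 0.00217 and 1 peak. Both *HYAL1* peaks, of 639 and 596 bp, covered nearly the same interval and also overlapped the transcript of an expressed gene. The *SLC25A30* peak of 1577 bp overlapped a listed transcript of 1001 bp and ran past it. The listed levels of these 2 genes were close to 0, and whether any fragment was counted for them cannot be read from FPKM.

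Levels varied more between animals at this level than among expressed genes. The mean FPKM of the 768 genes had quartiles of 0.317, 0.551 and 0.765, and the animals TES5, TES6 and TES7 had medians over genes of 0.518, 0.552 and 0.474. The highest value fell on TES5 for 239 genes, on TES6 for 284 and on TES7 for 245. The coefficient of variation over the 3 animals had a median of 30.5%, against 11.9% for expressed genes with a peak and 61.8% for all weakly expressed genes. An FPKM of 0 was listed in at least 1 animal for 63 genes, and 173 genes reached 1 or more in at least 1 animal, so that 595 of the 768 were below 1 in every animal. Since the rule used these values, the spread is a description of the genes chosen.

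A few genes differed several-fold between animals. *MPZL2*, an immunoglobulin-family adhesion gene, had FPKM values of 2.21, 0.174 and 0.495 in TES5, TES6 and TES7. *RMI2*, a subunit of the complex that dissolves recombination intermediates, had 1.84, 0.501 and 0.0563, and *ITGBL1* had 0.775, 0.0208 and 0.166. All 3 were highest in TES5, and their coefficients of variation were 114%, 116% and 125%. *CFAP45*, an axonemal protein gene, had 1.63, 1.16 and 0.197, *CCDC39*, which sets the spacing of dynein arms, had 1.41, 0.841 and 0.176, and *CFAP58*, needed for the sperm flagellum, had 1.12, 0.633 and 0.105. These 3 genes were highest in TES5 and lowest in TES7. Of the 7 weakly expressed genes in the dynein, kinesin and cilia list, 5 were lower in TES7 than in TES5, and only these 3 were lowest in TES7. In the same list *CFAP126* (0.133, 0.264 and 0.170) and *KIF26B* (0.168, 0.329 and 0.293) were lowest in TES5, and *SPAG16* and *KIF5A* were lowest in TES6. Over all 768 genes, 363 (47.3%) were lower in TES7 than in TES5, and 276 were lowest in TES7. *FOXJ1*, the transcription factor of motile cilia, had 0.660, 0.562 and 0.267. With 3 animals of 1 condition no test between animals was possible.

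**Figure D2:**
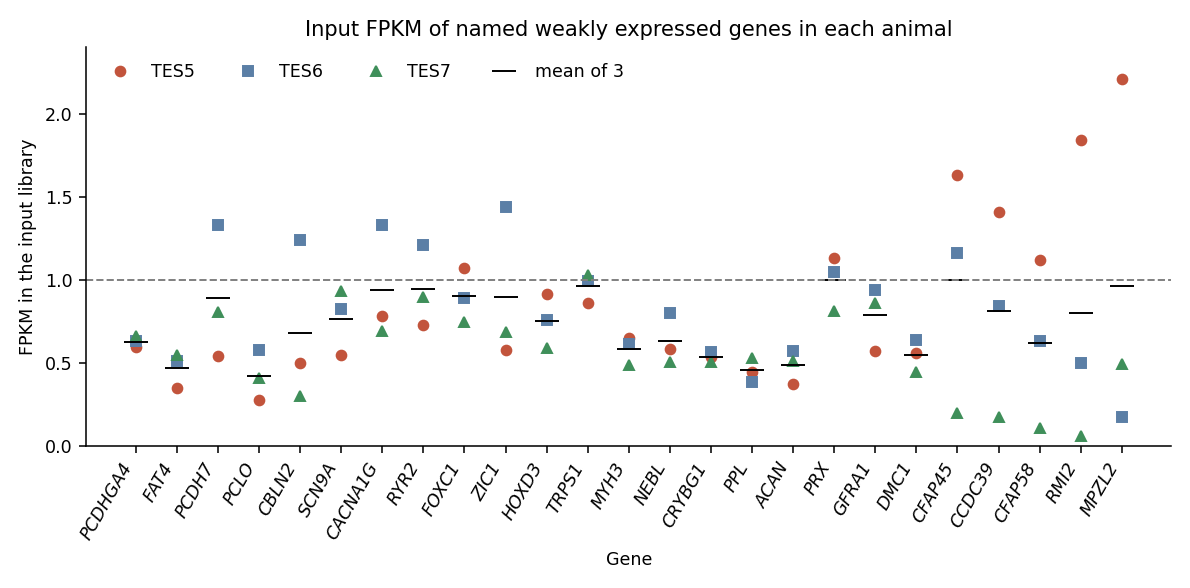
FPKM in the input library (vertical axis) of 25 weakly expressed genes with a peak (horizontal axis) in TES5 (circles), TES6 (squares) and TES7 (triangles), with the mean of the 3 animals as a bar and the limit of 1 as a dashed line. *PCDHGA4* and *CRYBG1* lie close together in the 3 animals, whereas *CFAP45*, *CCDC39*, *CFAP58* and *RMI2* are lowest in TES7 and *MPZL2* is above 1 in TES5 only.

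The peaks on weakly expressed genes were narrow. Width was taken as the genomic distance from start to end of a peak, which includes any introns. The median was 251 bp with quartiles of 151 bp and 970.5 bp, against 1189 bp with quartiles of 342 bp and 5219 bp on expressed genes. Widths fell on steps. Of the peaks on weakly expressed genes, 0.527% spanned at most 145 bp, 26.5% at most 151 bp and still 26.5% at most 182 bp. The lower quartile thus lay on the lowest large step, and a width there need not be the extent of the modified stretch. Of all 1139, 75.4% spanned at most 1000 bp (859 of 1139, interval 72.8% to 77.8%), against 47.6% on expressed genes, a difference of 27.8 percentage points (95% Newcombe interval 25.1 to 30.4). At the narrow end, 37.8% spanned at most 200 bp and 56.5% at most 300 bp, against 13.7% and 23.9%. At most 5000 bp was spanned by 88.0%, against 74.2%, so that the classes still differed there. Only over 50000 bp were they alike, with 22 peaks, or 1.93% (1.28% to 2.91%), against 2.11%. Intervals for shares of peaks and genes cover counting error only, since neither are replicates, and peaks of the same gene share a transcript.

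The share of narrow peaks changed gradually with expression, and in both directions from a maximum. It was 56.9% at an FPKM below 0.05, 75% from 0.1 to 0.25, 78.1% from 0.25 to 0.5, 78.4% from 0.5 to 0.75 and 73.9% from 0.75 to 1, and then fell to 65.4% at 1 to 2, 53.6% at 2 to 5 and 41.7% at 10 or more. The median width likewise was 546 bp below 0.05, 250 bp from 0.5 to 0.75 and 1598.5 bp at 10 or more. Peaks on genes at 0 were the widest, with a median of 13833.5 bp. However, only 13 of these 90 peaks (14.4%) lay within the listed gene by the definition given with the placement of peaks. A further 56 (62.2%) contained the listed transcript whole. Below 0.05, 18 of 58 peaks (31.0%) lay within the listed gene. Widths at these lowest levels are thus largely those of peaks not placed in the listed gene. Among genes with a single peak, where no peak can have been divided into several listed ones, the narrow share was 69.0% (370 of 536) on weakly expressed and 47.9% (1974 of 4124) on expressed genes.

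The difference in width was found in long genes and not in the shortest. For listed transcripts spanning 2000 to 5000 bp, 90% of peaks on weakly expressed genes were narrow, against 72.9% on expressed genes. For spans of 5000 to 20000 bp the shares were 82.8% and 56.0%, for 20000 to 100000 bp 69.6% and 42.3%, and above 100000 bp 72.4% and 36.9%. Thus the gap was widest in the longest genes. In transcripts of at most 2000 bp the order turned, with 70.6% (84 of 119, 61.9% to 78.0%) against 84.6% (81.2% to 87.4%), and in this class only 52.9% of peaks on weakly expressed genes lay within the listed gene, against 93.6% on expressed genes.

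**Figure D3:**
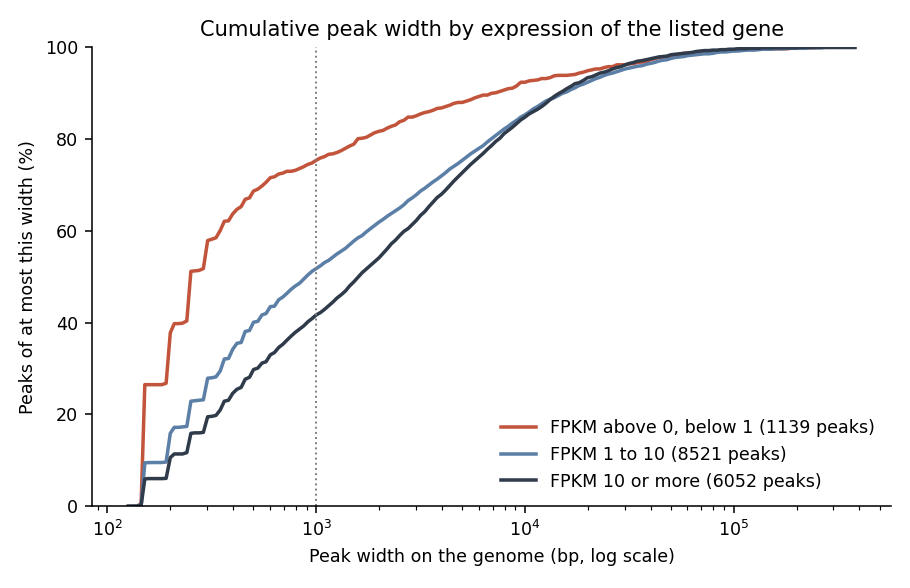
Cumulative share of peaks (vertical axis, %) by width on the genome (horizontal axis, bp, log scale) for genes with a mean FPKM above 0 and below 1 (red), 1 to 10 (blue) and 10 or more (black), with a dotted line at 1000 bp. At 1000 bp the curves stand at 75.4%, 51.8% and 41.7%, and they meet beyond about 50000 bp.

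Most weakly expressed genes had 1 peak. This was the case for 536 of the 768 genes, or 69.8% (66.5% to 72.9%), against 52.0% of expressed genes with a peak, a difference of 17.8 percentage points (14.2 to 21.1). A further 146 genes had 2 peaks, 59 had 3, 19 had 4 and 8 had 5 or more, which gave 1.48 peaks per gene against 1.84. The share with a single peak was 79.1% when the limit was set at an FPKM of 0.5.

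By annotation class, 851 peaks (74.7%) fell in exons, 212 (18.6%) in 3' UTRs and 76 (6.67%) in 5' UTRs. Relative to expressed genes, the exon class was larger by 5.51 percentage points (2.80 to 8.06), the 3' UTR class was smaller, with 18.6% against 21.6% (-2.98 points, -5.23 to -0.520), and the 5' UTR class was smaller, with 6.67% against 9.21% (-2.54 points, -3.93 to -0.872). The class is tied to width, and among peaks of at most 1000 bp the contrast was larger. There the exon class held 74.2% on weakly expressed and 61.9% on expressed genes, a difference of 12.2 points (9.01 to 15.3), and the 3' UTR class held 21.1% and 30.0%, a difference of -8.95 points (-11.8 to -5.91). Among peaks over 1000 bp the exon share was 76.4% and 75.8%, a difference of 0.607 points (-4.79 to 5.30). The interval for wide peaks thus included 0, and that for narrow peaks did not.

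Within transcripts of at least 3 exons, 137 of 634 exon peaks, or 21.6% (18.6% to 25%), lay in the last exon, against 10.9% on expressed genes, a difference of 10.8 percentage points (7.66 to 14.2). Exons picked with equal weight would give 13.3% and 10.2%. This difference went with width. Among exon peaks of at most 1000 bp, 28.6% (133 of 465) on weakly expressed and 25.7% (870 of 3386) on expressed genes lay in the last exon, a difference of 2.91 points whose interval of -1.29 to 7.42 includes 0, and among wider peaks 2.37% and 1.82% did. A difference in last-exon share was thus not detectable among peaks of like width at this number of peaks, while more of the peaks on weakly expressed genes were narrow. First exons held 9.15% and 12.6% of exon peaks, a difference of -3.41 points (-5.54 to -0.829). Among peaks of at most 1000 bp this difference was -3.24 points, with an interval of -5.94 to 0.0255 that includes 0. Among wider peaks it was -5.58 points (-8.55 to -0.734). Position was also taken along the genomic span of the listed transcript, introns included. The median centre of peaks that lay within their listed gene was at 0.815 of the span (0 at the start, 1 at the end) against 0.742. In the final 20% of the span lay 51.4% of centres against 44.8%. Peaks of like width were not compared for this position.

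The genes with the most peaks showed several layouts. *PCDHGA4* (ENSBGRG00000024033), a member of the gamma protocadherin cluster, whose variable exons are spliced to shared constant exons and which encodes adhesion proteins of neurons, had 14 peaks of 149 to 401 bp on chromosome 8 between 57000630 and 57185301 (LU_Bosgru_v3.0). Its FPKM was 0.593, 0.633 and 0.659 in TES5, TES6 and TES7 (0.628 ± 0.0332, SD, n = 3). The values lay close together, and 10 of the 14 peaks were assigned to its own exons, 7 of them to a first exon of 4, while the other 4 peaks were assigned to exons of 3 other gene identifiers inside the cluster. *PCDHAC2*, of the alpha cluster on the same chromosome, had 4 peaks of 201 to 651 bp and an FPKM of 0.164, 0.419 and 0.436, lowest in TES5.

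*CRYBG1* (ENSBGRG00000005685), which encodes a protein with beta-gamma crystallin domains, had 8 peaks on chromosome 10. Of these, 7 followed each other in exons 5 and 6 of 24 between 47515495 and 47523259, and the last was a 3' UTR peak of 3809 bp. The FPKM was 0.533, 0.567 and 0.507, nearly level between the animals. The middle peak of the cluster spanned 5018 bp, from 47516793 to 47521810, and was assigned to exon 5, whereas the 6 peaks around it spanned 150 to 301 bp.

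*TRPS1* (ENSBGRG00000004435), a GATA-type repressor known from skeletal and hair development, had 6 peaks of 150 to 596 bp on chromosome 18. They lay in exon 3, in exon 4 (2 peaks) and in exon 7 of 7 (2 peaks), with a 3' UTR peak from 39110425 to 39110574 directly behind. The FPKM was 0.862, 0.990 and 1.03 (0.960 ± 0.0866, SD, n = 3), and the value in TES7 was above the limit. *PRX* had 5 peaks of 151 to 301 bp, all in exon 3 of 3 on chromosome 20 between 66362608 and 66364957. *MYH3*, the embryonic myosin heavy chain, had 3 peaks of 294 to 489 bp in exons 29, 33 and 36 of 40 and an FPKM of 0.648, 0.616 and 0.488. In *PRX* and in exon 7 of *TRPS1* narrow peaks thus stood next to each other, whereas those of *MYH3* lay several exons apart.

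Large adhesion, matrix and scaffold genes had several narrow peaks each, either at distant exons or in neighbouring stretches. *FAT4*, an atypical cadherin of planar cell polarity, had 2 peaks in exon 1 and 2 in exon 18 of 18, at opposite ends of a transcript spanning 201900 bp, and an FPKM of 0.350, 0.511 and 0.549. *PCLO*, a scaffold of the presynaptic active zone, had peaks of 150 to 251 bp in exons 2, 9 and 11 of 29 and an FPKM of 0.278, 0.576 and 0.407. *PCDH7* had its 3 peaks in exon 1 of 4, with an FPKM of 0.540, 1.33 and 0.805. *ACAN*, the cartilage proteoglycan aggrecan, had 4 peaks in exons 12 and 13 of 19 and an FPKM of 0.374, 0.572 and 0.513. The epithelial plakin genes *PPL* and *EVPL* had 4 peaks each, in exons 21 and 22 of 22 and in exon 24 of 25, with an FPKM of 0.447, 0.385 and 0.530 and of 0.229, 0.162 and 0.217. In 4 of these 6 genes (*FAT4*, *PCLO*, *PCDH7* and *ACAN*) the lowest value was that of TES5.

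**Figure D4:**
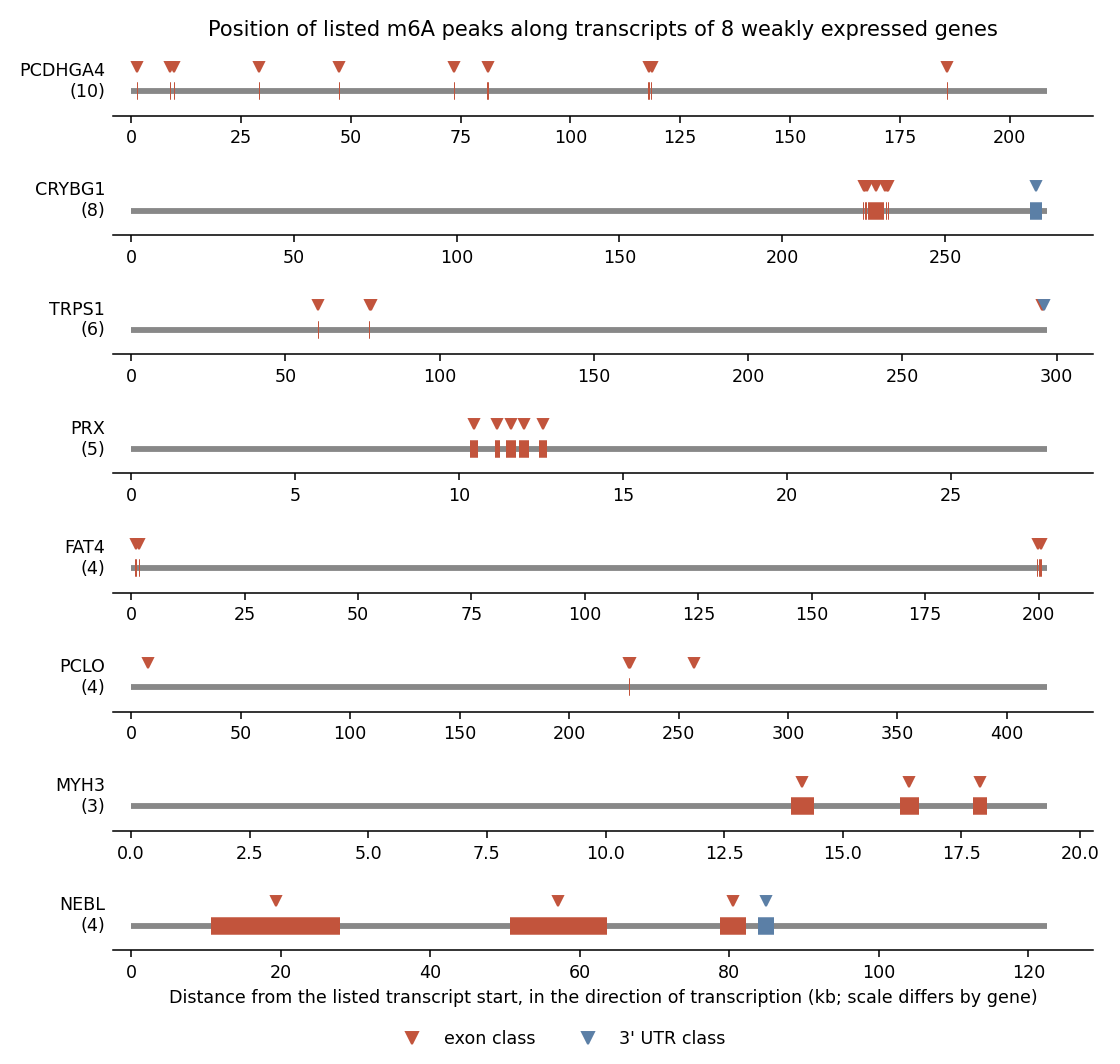
Listed m6A peaks within their gene along the transcripts of 8 weakly expressed genes, drawn as distance from the listed transcript start in the direction of transcription (horizontal axis, kb, a separate scale for each gene), with exon class peaks in red, 3' UTR class peaks in blue, bars for the peak width, triangles for its centre and the number of peaks in brackets. *PRX* and *CRYBG1* show rows of neighbouring peaks, *FAT4* has peaks at opposite ends, and only *NEBL* has wide peaks throughout, from 2144 to 17215 bp.

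*NEBL*, which encodes the actin-binding protein nebulette, differed in having 4 wide peaks and no narrow one, at an FPKM of 0.582, 0.801 and 0.508. Of all 280 peaks over 1000 bp, 228 (81.4%, 76.5% to 85.5%) lay within the listed gene by the definition given with the placement of peaks, against 98.2% on expressed genes. The 3 widest did not. They spanned 249662 bp (*MAD1L1*), 187910 bp (*STX8*) and 183460 bp (*P2RY12*). These 3 contained the listed transcript, which spanned 1287, 1648 and 1291 bp, and these identifiers had a mean FPKM of 0.0136, 0.454 and 0.0241. By contrast *MAML2*, a Notch coactivator gene with an FPKM of 0.564, 0.658 and 0.619, held a peak of 127984 bp inside its own transcript. At the other end, the 5 narrowest peaks spanned 143 to 145 bp and were listed on *HS6ST2*, *TLR7* (ENSBGRG00000009139), *C5AR1*, *S1PR4* and *DIO2*. They were hardly narrower than many others, since 26.5% of the peaks spanned at most 151 bp. The *HS6ST2* peak lay outside its listed transcript, in an exon without a gene identifier, and the others lay within the listed gene.

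Not every listed gene was the gene in which its peak lay. A peak was counted as within the listed gene if it overlapped the listed transcript without containing it whole and, for the exon class, if the exon named belonged to that gene. This held for 1011 of 1139 peaks, or 88.8% (86.8% to 90.5%), against 97.3% on expressed genes, a difference of -8.58 percentage points (-10.6 to -6.86). Peaks that ran past the transcript could count, and for the UTR classes the gene of the UTR was not checked. Among the peaks not within the listed gene, 48 missed the listed transcript and 30 contained it. Of 851 exon peaks, 61 (7.17%) named an exon under another gene identifier, compared with 2.04% on expressed genes. A further 49 (5.76%, against 1.41%) named an exon without a gene identifier, so that its gene is unknown. These groups overlap. The share overlapping the listed transcript of an expressed gene was 5.18% (59 peaks), against 1.96% for peaks on expressed genes that overlapped the transcript of another one. Only transcripts listed with a peak were searched, so that overlap with expressed genes without a peak was not counted.

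The placement depended on the level within the weakly expressed range. The share of peaks within the listed gene was 31.0% (18 of 58) below an FPKM of 0.05, 60% from 0.05 to 0.1, 80.6% from 0.1 to 0.25, 91.0% from 0.25 to 0.5, 91.6% from 0.5 to 0.75 and 99.1% (319 of 322) from 0.75 to 1. It was 95.8% at 1 to 2, so that the lower placement of peaks was found well below 1. For the 83 peaks below an FPKM of 0.1, the level of the listed gene need not be that of the transcript in which the peak lay, and whether the peak came from that gene was not tested.

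Examples were found among genes with many peaks. *ZFP64* (ENSBGRG00000005846), with an FPKM of 0 in TES5 and TES7 and 0.134 in TES6, had 6 peaks, none within its listed transcript of 1041 bp. All 6 were assigned to exons of transcripts without a gene identifier. *SERHL2*, with an FPKM of 0.239, 0.188 and 0.229, had 6 peaks in its 3' UTR class on chromosome 5 between 121992718 and 121994771, and 5 of them also overlapped the transcript of an expressed gene. *ZNF444*, with 0.639, 0.521 and 0.344, had 7 peaks, of which 5 were within the gene and 6 overlapped an expressed transcript. At *SERHL2* and *ZNF444* overlapping genes cannot be told apart by the peak list, which gives no strand of its own.

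Symbols were often shared. Of the 768 genes, 178 (23.2%, 20.3% to 26.3%) carried a symbol that an expressed gene with a peak carried too, against 17.0% of expressed genes that shared theirs with another one. Peaks on these genes were within the listed gene in 77.1% (212 of 275), against 92.5% (799 of 864) on the other weakly expressed genes, and the median transcript span was 9520.5 bp against 34550 bp. *RPN1*, a subunit of the oligosaccharyltransferase, was an example, with an identifier of 1626 bp at a mean FPKM of 0.346 that had 6 peaks, none within it, and another identifier at 182. *MYL12A*, a non-muscle myosin light chain gene, had 3 peaks, none within the gene, at a mean FPKM of 0.0122, and another identifier at 111. The sequences of such identifiers were not compared, and by the study's methods only uniquely mapped reads of high quality were kept. The level of a listed identifier need not be that of its symbol. Why the levels differed between identifiers was not tested.

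Gene families differed in how many of their peak-carrying genes were weakly expressed, against 8.75% of all 8775 genes with a peak and an FPKM. The families were defined by patterns of symbols and chosen with earlier results of these data known, and the shares are descriptions. Cadherins and protocadherins had the highest share, 14 of 29 genes or 48.3% (31.4% to 65.6%). For voltage- and ligand-gated ion channels it was 29 of 84 or 34.5% (25.2% to 45.2%), for muscle contractile genes 13 of 38 or 34.2% (21.2% to 50.1%), for synapse adhesion and vesicle genes 13 of 45 or 28.9% (17.7% to 43.4%) and for homeobox and other developmental transcription factors 24 of 103 or 23.3% (16.2% to 32.3%). G protein-coupled receptors (18.8%), extracellular matrix genes (16.5%), immune genes (16.3%) and solute carriers and ABC transporters (14.7%) followed. The intervals of these 9 families lay above the background. Zinc finger genes, with 31 of 316 or 9.81%, keratin, claudin and other epithelial genes, with 3 of 26 or 11.5%, and dynein, kinesin and cilia genes, with 7 of 108 or 6.48%, had intervals that included it.

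**Figure D5:**
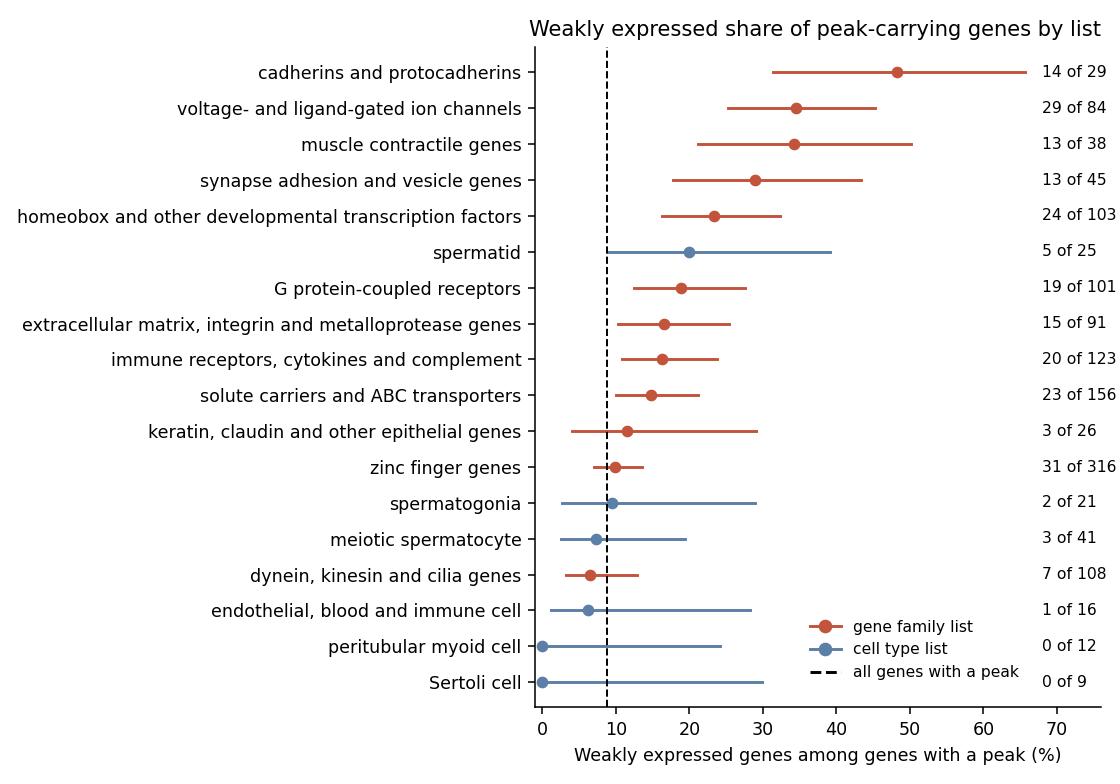
Share of weakly expressed genes among genes with a peak (horizontal axis, %) for 12 gene family lists (red) and the 6 cell type lists with at least 9 such genes (blue), with 95% Wilson intervals as lines, counts at the right and the share among all genes with a peak as a dashed line at 8.75%. Cadherins, ion channels, muscle contractile genes, synapse genes and developmental transcription factors stand farthest to the right of the line, and no Sertoli or myoid marker was weakly expressed.

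The ion channel genes carried 39 peaks, all within the listed gene, with a median width of 198 bp. *SCN9A*, a voltage-gated sodium channel of sensory neurons, had an FPKM of 0.546, 0.823 and 0.930 and 3 peaks, 2 of them in exon 24 of 24. *CACNA1G*, a T-type calcium channel, had 0.784, 1.33 and 0.693 and peaks of 200 and 150 bp in exons 7 and 16 of 35. *RYR2*, the calcium release channel of heart muscle and also in the muscle list, had 0.730, 1.21 and 0.898 and 2 peaks in exon 90 of 105. The sodium channel was lowest in TES5, and both calcium channels were highest in TES6. Potassium channels made up 10 of the 29 genes, among them *KCNB2* with 0.267, 0.266 and 0.233, and receptor channels were represented by *CHRNB2*, an acetylcholine receptor subunit with 0.101, 0.233 and 0.170. *KCNB2* was nearly level between the animals, and *CHRNB2* had a single peak of 150 bp.

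The synapse genes had 19 peaks, all within the listed gene and 18 of them narrow. *CBLN2*, a synapse organiser, had 0.50, 1.24 and 0.303, and both of its peaks lay in the 3' UTR. *LRFN5*, an adhesion protein, had 0.688, 0.821 and 0.532, and *SV2C*, a synaptic vesicle protein, had 0.420, 0.349 and 0.423. The animals overlapped in order, with *CBLN2* and *LRFN5* highest in TES6 and *SV2C* nearly level.

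Developmental transcription factors had 30 peaks, of which 28 were narrow and 26 within the listed gene. *FOXC1*, a forkhead factor of mesenchyme and eye development, had 3 peaks in 2 exons of a transcript of 1636 bp and an FPKM of 1.07, 0.888 and 0.743. *ZIC1*, a zinc finger factor of the cerebellum, had 2 peaks and 0.576, 1.44 and 0.685, and *HOXD3* had 2 peaks, in exons 3 and 5 of 5, and 0.912, 0.759 and 0.591. *FOXC1* and *HOXD3* were highest in TES5 and lowest in TES7, while *ZIC1* was highest in TES6. *TFAP2C*, a factor of germ cell precursors, had 1.17, 1.20 and 0.0339 and was near 0 in TES7 alone, and its symbol was shared with an expressed identifier. Among the others were *HOXA3*, *HOXB2*, *HOXC12*, *POU4F1*, *PAX8*, *TBX18* and *PROX1* with 1 peak each.

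Muscle contractile genes had 25 peaks, of which 12 were narrow and 20 within the listed gene, with a median width of 1108 bp. The peaks not within the gene were those of *MYL12A* (0 of 3), the non-muscle light chain gene caught by the symbol pattern, and *MYH6* (0 of 2). The dynein, kinesin and cilia genes, with 4 of 10 narrow and a median of 2305.5 bp, likewise had wider peaks than the channel, synapse and transcription factor lists. Heart and skeletal muscle genes were in the muscle list, such as *MYBPC3* with 0.820, 0.993 and 0.570, *MYL4* with 0.684, 1.14 and 0.95, and *MYH7* with 0.239, 0.274 and 0.233. *MYL4* had 3 peaks, and *MYBPC3* and *MYH7* had 1 each, of 1123 and 1693 bp. Zinc finger genes had 64 peaks, of which 43 were within the listed gene, the rest including all peaks of *ZFP64* (0 of 6) and *ZNF773* (0 of 3). Among immune genes, *TLR2* and *TLR6*, receptors for bacterial lipopeptides, had 2 peaks each at 0.266, 0.650 and 0.355 and at 0.625, 0.906 and 0.830, and *IL7R*, the interleukin-7 receptor of lymphocytes, had 0.283, 0.435 and 2.14, high in TES7 only. The immune list had 24 peaks, of which 18 were within the listed gene. Its symbol pattern also caught genes such as *CD2BP2*, a splicing factor, and *IL1RAPL1* and *IL1RAPL2*, which had no peak within the listed gene.

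Gene ontology terms gave a partly similar picture over 7944 genes with a term, of which 691 (8.70%) were weakly expressed. The share was 8 of 21 for the voltage-gated potassium channel complex, 11 of 34 for chemical synaptic transmission, 5 of 13 for the sarcomere and 106 of 827 (12.8%, 10.7% to 15.3%) for the plasma membrane. It was 160 of 2805 (5.70%, 4.90% to 6.62%) for the nucleus, 12 of 321 (3.74%) for the mitochondrion, 2 of 81 for mRNA splicing and 1 of 71 for translation. Genes under the potassium channel, synaptic transmission and plasma membrane terms were thus more often weakly expressed than genes of the housekeeping compartments. Broader terms of nerve cells lay closer to the share of 8.70%. For the synapse it was 15.1% (9.18% to 23.7%). For the axon (13.5%, 8.19% to 21.3%) and the postsynaptic density (12.9%, 7.38% to 21.7%) the intervals included 8.70%. The interval of the cilium term (9 of 69) included it too, although its share was above that of the cilia list. The term RNA-directed DNA polymerase activity was given to 160 of the 691 weakly expressed genes and to 1326 of all 7944 genes with a term. The share of weakly expressed genes under it was 12.1% (160 of 1326, 10.4% to 13.9%). Why so many genes carried this term was not tested.

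The share of weakly expressed genes among germ cell markers with a peak was 2 of 21 for spermatogonia (9.52%, 2.65% to 28.9%) and 3 of 41 for meiotic spermatocytes (7.32%, 2.52% to 19.4%), near the background of 8.75%. In spermatogonia, *GFRA1*, the GDNF co-receptor of undifferentiated spermatogonia, had an FPKM of 0.572, 0.936 and 0.863 and a 3' UTR peak of 150 bp on chromosome 25 from 39534564 to 39534713. *EGR4* had 0.416, 0.540 and 0.491 and an exon peak of 343 bp. Both were lowest in TES5. In meiosis, *DMC1*, the meiotic recombinase, had 0.560, 0.635 and 0.446 and a peak of 3158 bp in exon 9 of 10, and *MSH4*, a crossover factor, had 0.862, 0.367 and 0.569 and a peak of 1135 bp in exon 12 of 19. *SYCP2*, of the synaptonemal complex, had 0.770, 0.883 and 0.749 and a peak of 26417 bp. These 3 meiotic peaks were all wide. *DMC1* and *SYCP2* also had other identifiers with a peak, the highest with a mean FPKM of 15.2 and 5.71, so that the values are those of the listed identifier and not of the symbol.

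Spermatid genes were represented by 5 of 25 peak-carrying identifiers (20%, 8.86% to 39.1%). *FAM170A* had 1.37, 1.03 and 0.431 and 2 peaks of 248 bp in exon 3 of 4. *SPAG16*, of the sperm axoneme, had 0.874, 0.274 and 0.479, and *ADAM2*, of the sperm surface, had 0.675, 0.275 and 0.193 and a peak of 10367 bp that was not within the listed gene. *IZUMO2*, related to the sperm fusion protein, was listed under 2 weakly expressed identifiers at a mean FPKM of 0.463 and 0.396, and the highest mean of its 3 identifiers with a peak was 12.5. *FAM170A*, *SPAG16* and *ADAM2* were highest in TES5, whereas both weakly expressed *IZUMO2* identifiers were highest in TES7, at 0.622 and 0.653. *MS4A1*, the B cell antigen CD20, was the only endothelial, blood or immune cell marker among the weakly expressed genes with a peak, at 0.0742 in TES5 and 0 in TES6 and TES7.

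Across chromosomes, the share of weakly expressed genes among genes with a peak ran from 4.40% on chromosome 25 (2.24% to 8.43%) to 14.2% on chromosome 23 (8.77% to 22.0%). The X chromosome had 24 of 299 genes (8.03%) with 35 peaks and the Y chromosome 4 of 52 (7.69%) with 4 peaks. The intervals of the assembled chromosomes included the background of 8.75%, except those of chromosomes 9, 23 and 25, which lay just beside it.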

How the data were processed

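MeRIP-seq had been performed on testis of 3 cattle-yaks (1 IP and 1 input library each). Per the study's methods and processing notes, Trimmomatic was used for trimming, SortMeRNA to remove rRNA reads and HISAT2 2.0.4 to align the remainder to LU_Bosgru_v3.0. Peaks were called by the authors with MeTDiff and annotated with ChIPseeker, and the deposited list gives positions, class, gene and transcript for the group. FPKM values per gene and input library were deposited by the authors, and the program used is not given in the sources used here. FPKM values keep no read numbers, so the depth behind a gene is unknown and no count model was used.

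Peaks were joined to FPKM by gene identifier, and means, SD and shares were computed with pandas 2.3.3, numpy 2.4.6 and SciPy 1.17.1 (Python 3.11.15). Figures were drawn with matplotlib 3.10.9. Differences of shares have Newcombe 95% intervals and no p-values. The procedures were tested on simulated data. The members, lists and gene patterns were chosen with earlier results of these data known. Genes were named by a rule: those with the most peaks, the most narrow peaks within the gene, the widest and narrowest peaks, a mean FPKM nearest 1 or lowest, the largest coefficient of variation, and up to 4 per list. Genes named from the lists beyond these, and *RPN1*, were chosen after their values were seen. Some genes that meet the rule or belong to the lists are not reported here. Alternatives were leaving out each animal, other limits of FPKM, merged peaks (gap of at most 100 bp), peaks within the gene only, weighting by width, genes by symbol and rescaled FPKM. No genome of this build was used, so sequences and motifs were not analysed here.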

Additional observations from a re-analysis of the deposited data

How the results depend on the processing

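No paired analysis was possible because the samples form 1 condition and no result compares groups of animals. The numbers of peaks and genes stayed within 1.5 times when any animal was left out, with 1129 to 1166 peaks and 756 to 773 genes. Genes with a peak then made up 14.8% to 15.3% and the median coefficient of variation 26.1% to 27.4%, where fewer animals enter the mean. With an upper limit of 0.5 there were 447 peaks on 339 genes, 8.03% of genes had a peak, 79.1% of these a single one, 12.1% of exon peaks were assigned to another gene, 9.62% of peaks overlapped an expressed transcript and the median coefficient of variation was 40.6%. With an FPKM above 0 in every animal the corresponding values were 20.4% of genes with a peak, 4.59%, 3.52% and 28.9%, and with an FPKM below 1 in every animal 12.2% of genes had a peak. Merging neighbouring peaks gave a median width of 296 bp and 73.2% of genes with a single peak. Peaks within the listed gene alone gave 12.8% of genes with a peak and 3.36% on an expressed transcript, and by construction 0% at another gene's exon. Weighted by width, 10.9% fell in 3' UTRs and 13.7% in 5' UTRs, and with peaks of at most 1000 bp alone 21.1% and 4.77%. Settings chosen after seeing the data gave 69.0% narrow peaks and a median width of 297 bp for genes with a single peak, and 28.6% of narrow exon peaks in the last exon. The cause of these shifts was not tested. The other 85 of 113 values stayed within 1.5 times the reported count or within the counting interval. Depth cannot be read from FPKM, 1 peak list gives no spread between animals, and with 3 animals an outlying animal cannot be tested for.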

Other observations

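The level of the listed gene was not the same in each animal, so membership changed at the edge. Without TES5, 705 of the 768 genes remained below the limit, 63 left and 57 entered; without TES6, 733 remained; and without TES7, 719 remained.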
